A study of Mus musculus with 12 samples.

Results

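The 10 genes described here encode the core of the BCL2 family: the anti-apoptotic members Bcl2, Bcl2l1 (BCL-XL) and Mcl1, the BH3-only members Bcl2l11 (BIM), Bbc3 (PUMA), Pmaip1 (NOXA), Bid and Bad, and the effectors Bax and Bak1. They were taken by symbol from a table of 45777 genes, in which each symbol had a single row, and all 10 were among the 15197 genes that passed the filter on low values and were tested. RNA came from splenic CD4+ T cells of wild type C57BL/6 mice, aged 7 weeks in the labels, that were stimulated with anti-CD3 at 0.5 µg/ml for 3 days. Control cultures received no drug, and the others received metformin (Metformin), FK506 (tacrolimus, a calcineurin inhibitor) or both drugs (Metformin+FK506), with 3 samples in each of the 4 groups. Anti-CD3 was thus common to every group, unstimulated cells were not analysed here, and the drug doses of these cultures are not given in the sources used here. The methods of the study also list soluble anti-CD28 and older mice among its activation cultures. The labels do not say whether the 3 samples of a group came from separate mice or cultures, so the p-values measure only the spread between these samples.

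Proteins of this family decide whether the outer membrane of the mitochondrion is opened, the step that releases cytochrome c and starts the caspases. BAX and BAK form the pore, BCL2, BCL-XL and MCL1 hold them in check, and the BH3-only proteins bind the protective members or switch on the pore formers. In T cells, antigen receptor and cytokine signals keep the protective members expressed, and BIM is known for driving the death of T cells after stimulation ends. The values below are levels of messenger RNA, and neither protein nor cell death was measured in these libraries.

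Levels are given as FPKM (fragments per kilobase of transcript, scaled to library size), as deposited, which allows levels of different genes to be set side by side. Fold changes come from the deposited read counts, scaled between libraries by TMM (trimmed mean of M values) and tested with edgeR's quasi-likelihood test in a fit of all 4 groups. A gene was called changed at a Benjamini-Hochberg adjusted p under 0.05 over all 15197 genes. Because TMM placed the libraries with FK506 differently from their FPKM values, a tested log2 fold change lay about 0.22 below the FPKM difference for FK506 against Control and about 0.21 below it for Metformin+FK506 against Control, against 0.034 for Metformin. The 3 comparisons with Control shared the same Control samples.

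The libraries held between 43402632 and 64290105 counted reads. T cell genes were high throughout, with a summed FPKM over 12 genes of 2525 to 2577 in Control, 2399 to 2505 in Metformin, 2098 to 2215 in FK506 and 2236 to 2319 in Metformin+FK506. Markers of other cells differed between the groups. The summed FPKM of 10 B cell markers was 51.3 to 53.3 in Control, 67.6 to 75.5 in Metformin, 838 to 887 in FK506 and 410 to 441 in Metformin+FK506. For 10 myeloid cell markers the sum was 4.66 to 4.70 in Control, 9.10 to 10.4 in Metformin, 1238 to 1274 in FK506 and 792 to 926 in Metformin+FK506. Between the last 2 groups the sum followed Lyz2 (981 ± 10.8 FPKM (SD, n = 3) in FK506 and 539 ± 64.5 in Metformin+FK506), which was the 1 myeloid gene that fell, while 3 rose (Cd68, C1qb and C1qc) and the median log2 fold change of the 10 was 0.13. The defining myeloid genes Csf1r, C1qa, C1qb and C1qc had at most 3 counts in every Control and Metformin library, as did Adgre1 in Control, and all 10 B cell and all 10 myeloid genes were higher in both groups with FK506 than in Control. Of 5 CD8 T cell and NK genes, 3 were tested, and the summed FPKM of all 5 ran from 10.2 to 10.7 in Control, from 17.7 to 18.5 in Metformin, from 20.6 to 21.4 in FK506 and from 20.01 to 21.35 in Metformin+FK506. With FK506 this sum followed Eomes (1.22 FPKM in Control and 13.6 in FK506), whereas Cd8b1 fell (7.90 and 5.44) and Cd8a did not pass (1.28 and 1.61). The part of these cells in the values of the BCL2 family was not tested, and in bulk RNA fewer cells of a type cannot be told apart from less RNA per cell.

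**Figure D1:**
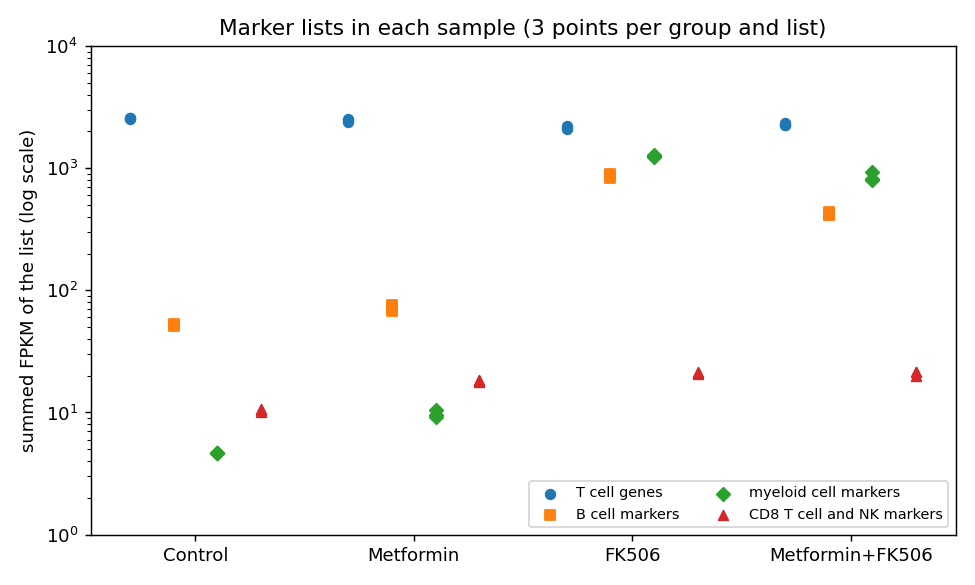
Summed FPKM (log axis) of 4 marker lists in each of the 12 samples, by group, 1 point per sample and list. The T cell sum stays between 2098 and 2577, while the B cell and myeloid sums are 410 or more in every library with FK506 and 75.5 or less in every library without it.

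In Control, the 10 genes spanned a range of levels from 8.73 FPKM for Bid to 108 for Bax. Bax was followed by Mcl1 (82.1), Bcl2 (53.6), Bak1 (47.7) and Bcl2l1 (42.8), and the BH3-only genes lay lower, with Bbc3 at 16.9, Pmaip1 at 16.2, Bcl2l11 at 14.2 and Bad at 10.3. Among neighbours in this order only Bbc3 and Pmaip1 had overlapping samples in Control. With FK506 the order changed: Mcl1 (134) came above Bax (112), and Bcl2 (11.0) dropped to the second lowest place, where its samples overlapped those of Bad (9.72). In Metformin, Bbc3 (41.2) and Bcl2l11 (36.5) both stood above Bcl2 (34.5) and Bcl2l1 (27.0).

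**Figure D2:**
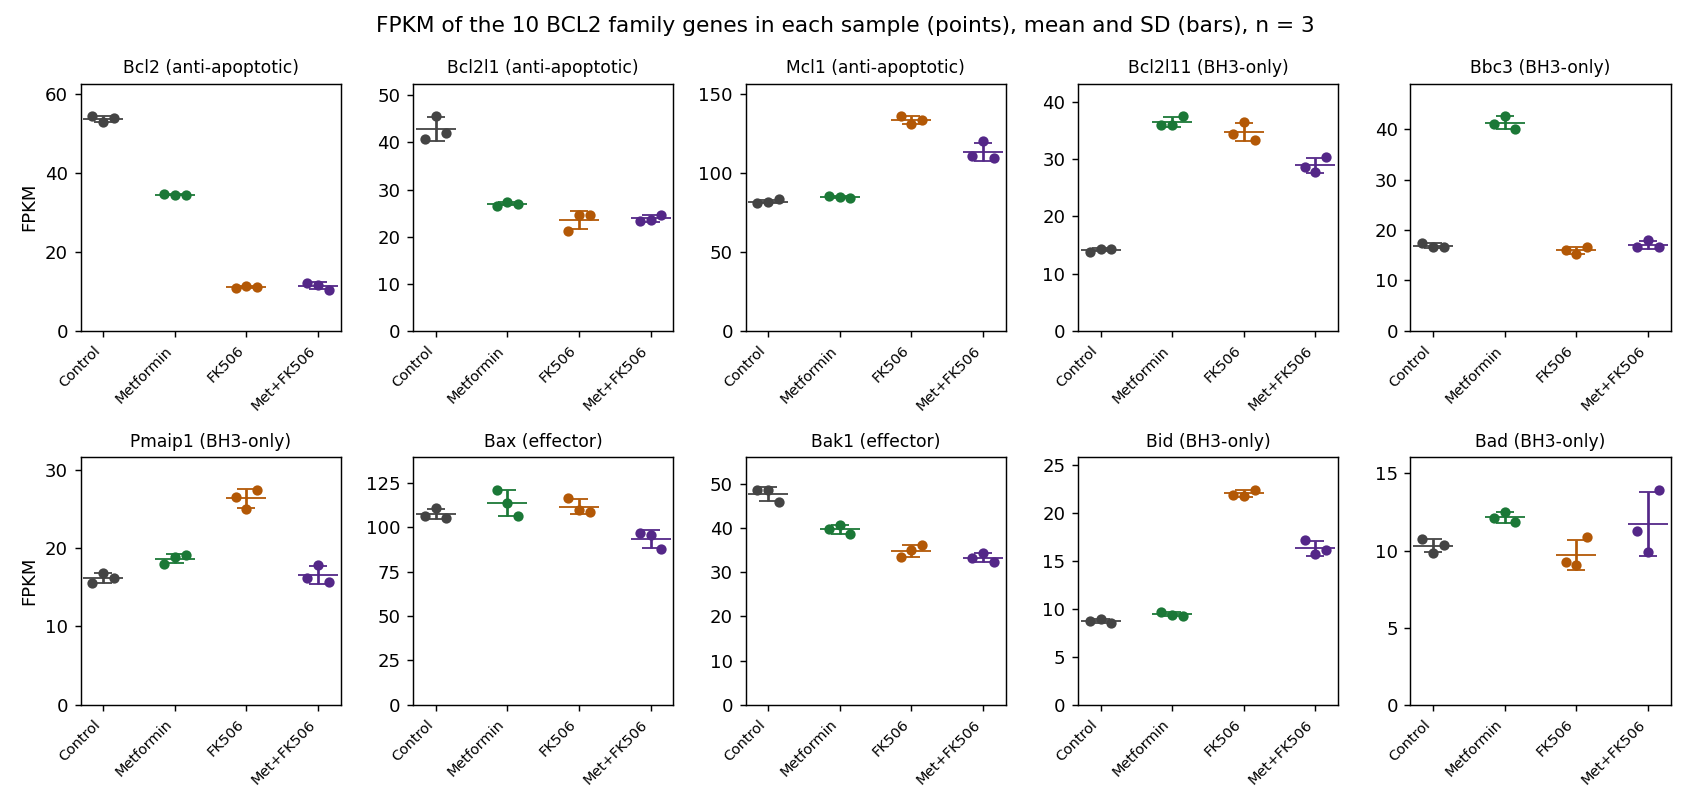
FPKM of each of the 10 genes (linear axes from 0, each gene with its own scale) in the 4 groups; points are samples, and bars are the mean and SD of 3 samples. Bcl2 is highest in Control at 53.6 and falls to 11.0 and 11.4 FPKM in the groups with FK506, and Bbc3 stands out in Metformin alone at 41.2.

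Of the 10 genes, 9 passed the test for FK506 against Control, 4 higher and 5 lower, where 80.9% of all genes tested passed, 41.3% higher and 39.6% lower, so the count by itself is near the background. A log2 fold change of 1 or more in size was reached by 4 of them (Bcl2, Bcl2l1, Bcl2l11 and Bid), against 36.6% of all genes. For Metformin against Control 6 genes passed, 3 in each direction, against 56.0% of all genes (28.6% higher and 27.4% lower), and 2 of them (Bcl2l11 and Bbc3) reached 1 on the log2 scale, against 10.5%. For Metformin+FK506 against Control 9 passed, 3 higher and 6 lower, against 81.7% (42.1% higher and 39.6% lower), and 2 reached 1 on the log2 scale, against 37.4%. The FPKM values of the groups did not overlap for 7 of the 10 genes with FK506 against Control, where this held for 84.4% of all genes, for 9 with metformin (65.0%) and for 7 with both drugs (82.0%), and for 5 between Metformin+FK506 and FK506 (38.6%) and 9 between Metformin+FK506 and Metformin (78.2%). The median log2 fold change over the 10 genes was -0.17 for FK506, 0.061 for Metformin and -0.17 for Metformin+FK506, beside 0.024, 0.011 and 0.033 over all genes tested. The split into higher and lower moved with the scaling: with libraries scaled to T cell genes it was 7 higher and 3 lower for FK506 and 6 higher and 3 lower for Metformin+FK506, and with TPM (transcript abundance scaled to the same total in each library) it was 6 and 3 in both.

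**Figure D3:**
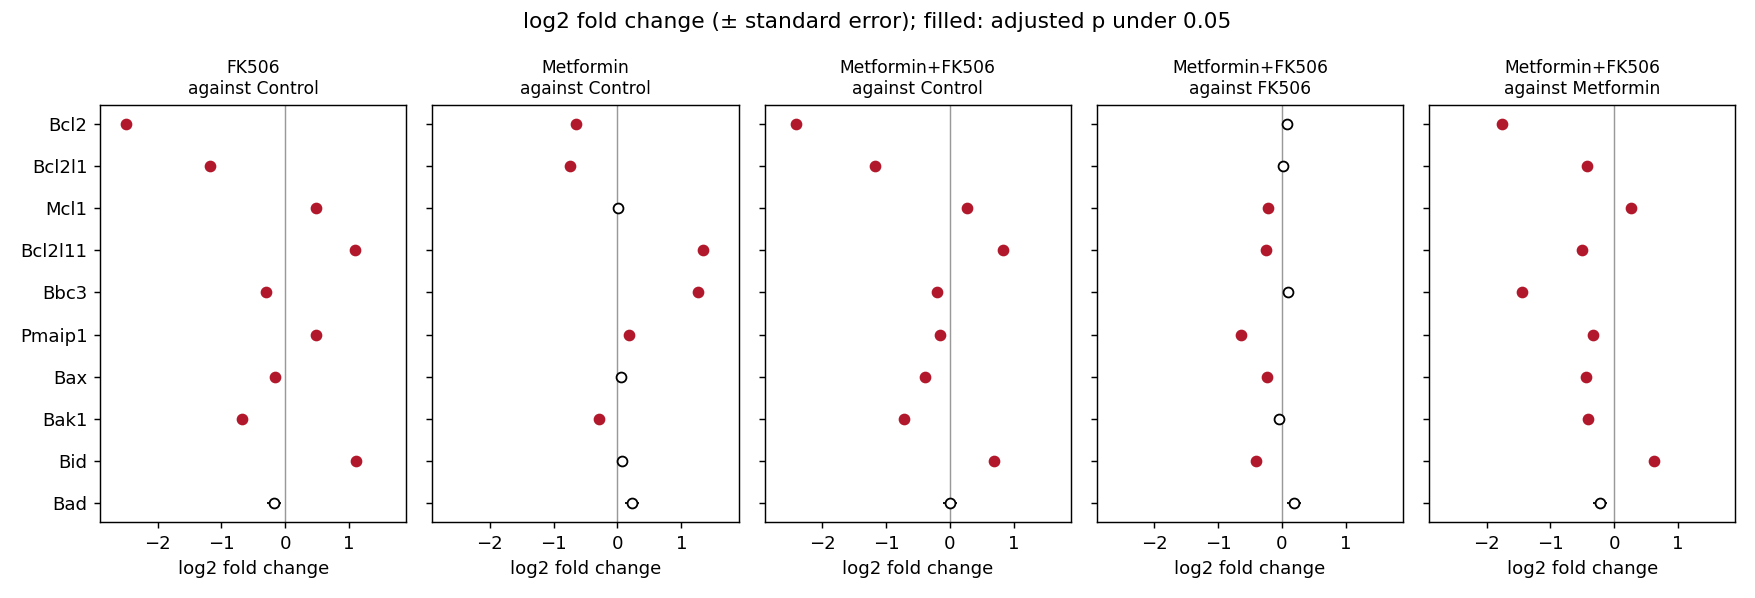
Log2 fold change (with its standard error) of the 10 genes in the 5 comparisons of groups, from edgeR's quasi-likelihood test; filled points have an adjusted p under 0.05. Bcl2 lies furthest to the left in the 3 comparisons of a group with FK506 against one without, and the small changes against Control of Bbc3, Bax and Bad with FK506, and of Bbc3, Pmaip1, Bax and Bad with both drugs, turn direction under at least 1 other scaling.

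Bcl2, the founding anti-apoptotic member, lies on chromosome 1 (GRCm38, 106538176 to 106714290). Its FPKM was 54.4, 52.8 and 53.8 in the Control samples, 34.6, 34.3 and 34.5 in Metformin, 10.9, 11.3 and 11.0 in FK506, and 12.1, 11.6 and 10.4 in Metformin+FK506. Control and Metformin were each separated from every other group, and FK506 and Metformin+FK506 overlapped. Bcl2 was 5.64-fold lower with FK506 than in Control (log2 fold change -2.50, SE 0.050, adjusted p = 8.15e-17). Metformin alone lowered it 1.57-fold (log2 fold change -0.65, SE 0.047, adjusted p = 5.81e-09). In Metformin+FK506 it was 5.32-fold lower than in Control (adjusted p = 1.26e-16), 3.39-fold lower than in Metformin (adjusted p = 7.53e-15), and within 0.083 (SE 0.049) of FK506 on the log2 scale, which did not pass the test (adjusted p = 0.22). Without the third Metformin+FK506 library, that last difference was 0.14 and passed (adjusted p = 0.00653).

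The promoter of Bcl2 is shown because this gene had the largest fold change among the 10. The 250 bases before its RefSeq start (GRCm38.p6, chr1:106714291-106714540, minus strand, 74.8% G and C) are printed with capitals marking GC boxes, the letters GGGCGG on either strand:
Bcl2: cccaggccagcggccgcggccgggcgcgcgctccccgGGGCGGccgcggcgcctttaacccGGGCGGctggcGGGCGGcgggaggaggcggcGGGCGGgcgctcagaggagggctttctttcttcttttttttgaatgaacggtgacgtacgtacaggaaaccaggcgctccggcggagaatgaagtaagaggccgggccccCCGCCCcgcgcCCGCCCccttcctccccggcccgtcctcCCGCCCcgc
The window held 7 GC boxes, the nearest starting 9 bases before the start, and no match to the FOXO letters GTAAACA, the E-box CACGTG, the NFAT core GGAAAA, the ATF4 half-site TGATGNAA or a p53 half-site. These motifs were chosen after the values were seen and were searched on both strands, with overlapping matches allowed. Of 32851 RefSeq promoter windows of the same length, 32.7% held a GC box, 3.17% the FOXO letters, 6.02% the E-box, 20.4% the NFAT core, 3.45% the ATF4 half-site and 7.13% a p53 half-site. The windows of the other members were searched too, except for Pmaip1, which had none, and those of Bcl2l11 and Bbc3 are described below. In Bcl2l1, with 3 windows, the NFAT core began 218 bases before start 2 and 168 bases before start 3. In Bak1 the NFAT core began 140 bases before the start. Bax held a p53 half-site 201 bases and an E-box 9 bases before its start, beside GC boxes. Of these motifs, Mcl1, Bid and Bad held GC boxes only. A match in a window is a description of its letters, and no binding was measured.

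Bcl2l1 encodes BCL-XL, the protective member known to rise when T cells are activated, and lies on chromosome 2 (152758732 to 152833803). Its FPKM was 40.8, 45.6 and 42.0 in Control, 26.6, 27.3 and 27.0 in Metformin, 21.3, 24.6 and 24.5 in FK506, and 23.3, 23.6 and 24.7 in Metformin+FK506. Control was above all other samples, Metformin came next without overlap, and the groups with FK506 overlapped each other. The gene was 2.27-fold lower with FK506 than in Control (log2 fold change -1.18, SE 0.040, adjusted p = 5.77e-14), 1.67-fold lower with metformin (adjusted p = 1.31e-10) and 2.24-fold lower with both drugs (adjusted p = 7.05e-14). Over the alternatives the values with FK506 ran from -1.21 to -0.62 and those with both drugs from -1.22 to -0.56 on the log2 scale, and all passed. It did not pass between Metformin+FK506 and FK506 (log2 fold change 0.017, adjusted p = 0.786). Against Metformin it was 1.34-fold lower in Metformin+FK506 (adjusted p = 4.76e-08), a call that was lost with scaling to T cell genes (adjusted p = 0.0572) and turned with TPM (log2 fold change 0.14).

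Mcl1, a short-lived protective member, lies on chromosome 3 (95656944 to 95663179) and moved the opposite way to Bcl2 with FK506. Its FPKM was 81.3, 81.5 and 83.4 in Control, 85.6, 84.7 and 84.1 in Metformin, 136, 131 and 134 in FK506, and 111, 120 and 110 in Metformin+FK506. No group overlapped another in FPKM, although Control and Metformin lay close together. FK506 was 1.40-fold above Control (log2 fold change 0.49, SE 0.041, adjusted p = 1.15e-08), and Metformin+FK506 was 1.21-fold above it (adjusted p = 1.11e-05). Metformin against Control did not pass (log2 fold change 0.016, adjusted p = 0.778), although it did after quantile normalization (0.15, adjusted p = 0.00426). Metformin+FK506 was 1.16-fold below FK506 (adjusted p = 0.00092) and 1.20-fold above Metformin (adjusted p = 2.28e-05), and these 4 calls held under every alternative run. Their sizes moved, from 0.46 to 0.94 for FK506 and from 0.22 to 0.73 for both drugs against Control, from -0.31 to -0.13 against FK506 and from 0.21 to 0.74 against Metformin.

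Set against each other within a library, the shares of the 3 protective genes shifted. Bcl2 made up 30.1% ± 0.732 (SD, n = 3) of their summed FPKM in Control, 23.6% ± 0.119 in Metformin, 6.56% ± 0.162 in FK506 and 7.65% ± 0.563 in Metformin+FK506. Bcl2l1 made up 24.0%, 18.4%, 13.9% and 16.1% in the same order. The share of Mcl1 was 46.0% in Control, 58.0% in Metformin, 79.5% in FK506 and 76.3% in Metformin+FK506. In deposited FPKM their sum was 179 ± 1.80 in Control, 146 ± 0.649 in Metformin, 168 ± 1.14 in FK506 and 149 ± 5.71 in Metformin+FK506. Unlike the shares, this sum depends on the scaling between libraries. Its order between groups with and without FK506 is therefore not settled.

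Among the 5 BH3-only genes of the set, Bcl2l11 and Bbc3 rose most with metformin alone. Bcl2l11, which encodes BIM, lies on chromosome 2 (128126038 to 128162547). Its FPKM was 13.9, 14.3 and 14.4 in Control, 36.0, 35.9 and 37.6 in Metformin, 34.4, 36.5 and 33.4 in FK506, and 28.6, 27.8 and 30.3 in Metformin+FK506. Every treated sample was above every Control sample, and Metformin and FK506 overlapped. The gene was 2.53-fold higher with metformin (log2 fold change 1.34, SE 0.041, adjusted p = 1.82e-13), 2.13-fold higher with FK506 (log2 fold change 1.09, SE 0.041, adjusted p = 3.01e-13) and 1.79-fold higher with both drugs (log2 fold change 0.84, adjusted p = 9.34e-12) than in Control, the last with a range of 0.79 to 1.27 over the alternatives. The combination thus lay below each drug alone, 1.19-fold below FK506 (adjusted p = 0.000179) and 1.41-fold below Metformin (adjusted p = 8.14e-09), the latter call being lost with TPM (log2 fold change -0.014, adjusted p = 0.776).

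Bbc3, which encodes PUMA, a BH3-only protein known as a target of p53, lies on chromosome 7 (16308398 to 16318334). Its FPKM was 17.5, 16.6 and 16.7 in Control, 41.0, 42.6 and 40.1 in Metformin, 16.0, 15.3 and 16.6 in FK506, and 16.6, 17.99 and 16.6 in Metformin+FK506. Only the Metformin samples stood apart, and the other 3 groups formed an overlapping range from 15.29 to 17.99. Metformin was 2.39-fold above Control (log2 fold change 1.25, SE 0.054, adjusted p = 9.38e-12), with a range of 1.21 to 1.30 over the alternatives. Metformin+FK506 was 2.73-fold below Metformin (log2 fold change -1.45, adjusted p = 3.44e-13, with a range of -1.50 to -0.94) and did not pass against FK506 (log2 fold change 0.10, adjusted p = 0.181). The tested differences from Control were small with FK506 (log2 fold change -0.29, adjusted p = 0.000127) and with both drugs (log2 fold change -0.19, adjusted p = 0.00435), and both turned positive with TPM (0.15 and 0.28) and with scaling to T cell genes (0.13 and 0.14).

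The promoters of Bcl2l11 and Bbc3 are shown because these 2 of the 10 genes rose most with metformin alone. The RefSeq promoter windows used here covered 2 starts for Bcl2l11 and 3 for Bbc3, and starts are numbered by these windows. The 250 bases before 2 starts of each gene (GRCm38.p6, plus strand) are printed. The third window of Bbc3 is left out because it overlaps the second. Capitals mark GC boxes (GGGCGG) and the FOXO letters (GTAAACA), each on either strand. Bbc3 itself begins at 16308398, before all of its windows, so the bases before that position were not searched. The windows are chr2:128125788-128126037 and chr2:128127325-128127574 for Bcl2l11, and chr7:16309333-16309582 and chr7:16310011-16310260 for Bbc3:
Bcl2l11, first start: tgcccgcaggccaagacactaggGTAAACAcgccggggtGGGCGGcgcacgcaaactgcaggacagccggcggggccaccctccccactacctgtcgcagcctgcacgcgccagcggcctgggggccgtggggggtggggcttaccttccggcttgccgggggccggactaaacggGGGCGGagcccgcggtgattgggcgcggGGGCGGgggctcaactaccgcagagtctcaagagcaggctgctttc
Bcl2l11, second start: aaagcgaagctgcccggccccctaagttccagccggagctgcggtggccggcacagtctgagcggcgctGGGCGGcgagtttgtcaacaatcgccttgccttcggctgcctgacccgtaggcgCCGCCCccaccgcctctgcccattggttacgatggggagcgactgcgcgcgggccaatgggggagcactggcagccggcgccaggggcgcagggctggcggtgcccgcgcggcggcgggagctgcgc
Bbc3, first start: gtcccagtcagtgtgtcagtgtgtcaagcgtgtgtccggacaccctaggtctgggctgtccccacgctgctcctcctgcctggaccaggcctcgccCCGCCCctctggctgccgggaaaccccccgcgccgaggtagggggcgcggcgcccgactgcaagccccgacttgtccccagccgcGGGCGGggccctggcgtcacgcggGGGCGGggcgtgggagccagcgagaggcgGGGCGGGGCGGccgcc
Bbc3, second start: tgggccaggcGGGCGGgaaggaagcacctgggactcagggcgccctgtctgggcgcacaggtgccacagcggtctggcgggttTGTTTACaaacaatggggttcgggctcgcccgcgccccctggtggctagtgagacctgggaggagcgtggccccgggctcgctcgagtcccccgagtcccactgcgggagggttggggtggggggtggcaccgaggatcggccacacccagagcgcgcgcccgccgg
The FOXO letters began 227 bases before the first start of Bcl2l11 and 167 bases before the second start of Bbc3, on opposite strands, and 3.17% of all promoter windows held them. GC boxes occurred in each of the 4 windows, and none of the 4 held the E-box, the NFAT core, the ATF4 half-site or a p53 half-site. The Bbc3 window left out held an E-box 64 bases before its start and 7 GC boxes.

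Pmaip1, which encodes NOXA, a BH3-only protein that binds MCL1, was highest with FK506 alone. Its FPKM was 15.5, 16.8 and 16.2 in Control, 18.01, 18.8 and 19.2 in Metformin, 26.6, 25.1 and 27.5 in FK506, and 16.2, 17.9 and 15.7 in Metformin+FK506. FK506 lay above all other samples, Metformin lay between, and Metformin+FK506 overlapped Control. FK506 was 1.40-fold above Control (log2 fold change 0.49, SE 0.059, adjusted p = 1.11e-06, with a range of 0.45 to 0.92) and Metformin+FK506 was 1.56-fold below FK506 (log2 fold change -0.64, SE 0.059, adjusted p = 5.94e-07). Metformin against Control passed narrowly (log2 fold change 0.17, adjusted p = 0.0217) and no longer did without Control replicate 1 (adjusted p = 0.0901), Metformin replicate 2 (adjusted p = 0.0572) or Metformin replicate 3 (adjusted p = 0.0755). Metformin+FK506 against Control gave -0.15 on the log2 scale (adjusted p = 0.0266), which no longer passed without Control replicate 2 (adjusted p = 0.105) or 3 (adjusted p = 0.0587) or without Metformin+FK506 replicate 1 (adjusted p = 0.0734) or 3 (adjusted p = 0.0966), and turned to 0.29 with TPM and to 0.18 with scaling to T cell genes. Against Metformin the combination gave -0.33 (adjusted p = 0.000105), which turned to 0.15 with TPM and was lost with scaling to T cell genes (-2.7e-05, adjusted p = 1.0).

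Bid, a BH3-only protein that death receptors activate through caspase-8, lies on chromosome 6 (120893119 to 120917062) and was the lowest of the 10 genes in Control. Its FPKM was 8.75, 8.89 and 8.55 in Control, 9.66, 9.31 and 9.28 in Metformin, 21.9, 21.8 and 22.4 in FK506, and 17.2, 15.7 and 16.1 in Metformin+FK506. The groups with FK506 lay well above those without, and no group overlapped another. FK506 was 2.15-fold above Control (log2 fold change 1.11, SE 0.051, adjusted p = 4.56e-12), and Metformin+FK506 was 1.62-fold above it (adjusted p = 2.01e-09). The combination was 1.33-fold below FK506 (log2 fold change -0.41, adjusted p = 1.18e-05) and 1.54-fold above Metformin (adjusted p = 9.47e-09). On the log2 scale the alternatives gave 0.65 to 1.13 for the combination against Control and 0.59 to 1.08 against Metformin. Metformin against Control did not pass (log2 fold change 0.072, adjusted p = 0.264).

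Bad, a BH3-only protein that growth factor signalling restrains, lies on chromosome 19 (6941861 to 6951905) and passed in none of the comparisons in the reported fit. Its FPKM was 10.8, 9.87 and 10.3 in Control, 12.1, 12.5 and 11.8 in Metformin, 9.24, 9.05 and 10.9 in FK506, and 11.3, 9.91 and 13.9 in Metformin+FK506. The third Metformin+FK506 library was the highest of the 12, and Metformin was the group that did not overlap Control. The log2 fold changes against Control were -0.18 with FK506 (SE 0.109, adjusted p = 0.138), 0.23 with metformin (adjusted p = 0.0836) and 0.0074 with both drugs (adjusted p = 0.953). These calls depended on the setting. With both drugs it passed with scaling to T cell genes (0.34, adjusted p = 0.00854) and with TPM (0.42, adjusted p = 0.00193). With metformin it passed with upper-quartile scaling (0.27, adjusted p = 0.0432), with library sizes only (0.26, adjusted p = 0.0472) and in a fit of the 2 groups compared (0.22, adjusted p = 0.0137). With FK506 it passed as lower after quantile normalization (-0.27, adjusted p = 0.0273) and as higher with scaling to T cell genes (0.25, adjusted p = 0.0436). Against Metformin the combination passed as lower with no filter on low values (-0.26, adjusted p = 0.0481) and as higher with TPM (0.25, adjusted p = 0.0394). Without the third Metformin+FK506 library, metformin against Control passed (0.22, adjusted p = 0.0253), and so did Metformin+FK506 against Metformin (-0.37, adjusted p = 0.00132).

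Summed over the 5 BH3-only genes, the FPKM was 66.3 ± 0.158 (SD, n = 3) in Control, 118 ± 1.20 in Metformin, 109 ± 1.68 in FK506 and 90.6 ± 1.81 in Metformin+FK506. In FPKM, the sum with both drugs was above Control and below either drug alone in every sample. This sum, too, depends on the scaling between libraries.

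The effector genes differed from each other. Bax, which lies on chromosome 7 (45461695 to 45466903), had FPKM values of 107, 111 and 105 in Control, 121, 114 and 107 in Metformin, 117, 110 and 109 in FK506, and 97.0, 95.7 and 87.8 in Metformin+FK506. The combination was below all other samples, and the other 3 groups overlapped. For Metformin+FK506, Bax was 1.31-fold below Control on the count scale (adjusted p = 2.95e-06), 1.17-fold below FK506 (adjusted p = 0.00281) and 1.36-fold below Metformin (adjusted p = 8.15e-07), although with TPM the differences from Control (0.065) and from Metformin (0.038) turned positive and did not pass, and with scaling to T cell genes both calls were lost (-0.062, adjusted p = 0.273, and -0.11, adjusted p = 0.0529). The difference of FK506 from Control (log2 fold change -0.16, adjusted p = 0.00922) turned positive with TPM (0.29), with scaling to T cell genes (0.26) and with library sizes only (0.061). Metformin against Control did not pass (log2 fold change 0.049, adjusted p = 0.442), although it did after quantile normalization (0.19, adjusted p = 0.00825).

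Bak1, the other effector, lies on chromosome 17 (27019812 to 27028627). Its FPKM was 48.7, 48.7 and 45.8 in Control, 39.9, 40.7 and 38.6 in Metformin, 33.5, 35.0 and 36.1 in FK506, and 33.2, 34.3 and 32.4 in Metformin+FK506. Control was above Metformin and Metformin was above both groups with FK506, which overlapped. Bak1 was 1.23-fold lower with metformin (adjusted p = 2.33e-05), 1.59-fold lower with FK506 (log2 fold change -0.67, SE 0.044, adjusted p = 4.13e-10) and 1.63-fold lower with both drugs (adjusted p = 1.97e-10) than in Control. These 3 calls held under the alternatives run, with ranges of -0.32 to -0.17, -0.70 to -0.21 and -0.76 to -0.25 on the log2 scale. Between Metformin+FK506 and FK506 it did not pass (log2 fold change -0.039, adjusted p = 0.549), although it did with scaling to T cell genes (-0.14, adjusted p = 0.0335). The combination was 1.33-fold below Metformin (adjusted p = 2.54e-07), which turned to 0.068 on the log2 scale with TPM and did not pass, and the call was lost with scaling to T cell genes (-0.084, adjusted p = 0.11).

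Ratios of FPKM within a library do not depend on the scaling between libraries. The ratio of Bcl2l11 to Bcl2 was 0.255, 0.270 and 0.267 in the Control samples, 1.04, 1.05 and 1.09 in Metformin, 3.17, 3.24 and 3.04 in FK506, and 2.35, 2.40 and 2.91 in Metformin+FK506. Geometric means were 4.01-fold higher with metformin, 11.9-fold higher with FK506 and 9.62-fold higher with both drugs than in Control. The ratio of Bax to Bcl2 averaged 2.01 ± 0.0814 (SD, n = 3) in Control, 3.30 ± 0.208 in Metformin, 10.1 ± 0.526 in FK506 and 8.22 ± 0.218 in Metformin+FK506. For Mcl1 over the sum of Bcl2 and Bcl2l1 the means were 0.851 ± 0.0212, 1.38 ± 0.0164, 3.89 ± 0.308 and 3.22 ± 0.166 in the same order. For all 3 ratios the groups did not overlap in any of the 5 comparisons, and the two-sided exact permutation p was 0.1 in each, the smallest that 3 samples against 3 allow.

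**Figure D4:**
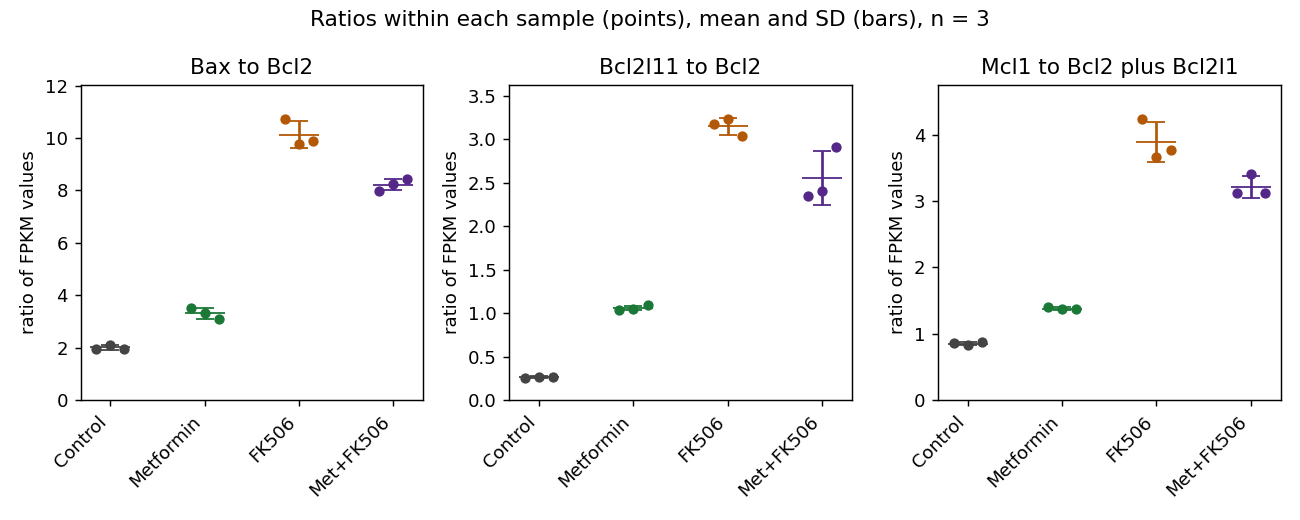
Ratios of FPKM values within each library (linear axes from 0) for Bax to Bcl2, Bcl2l11 to Bcl2, and Mcl1 to Bcl2 plus Bcl2l1; points are samples, and bars are the mean and SD of 3 samples. In each panel Control is lowest and FK506 highest, with 0.264 and 3.15 for Bcl2l11 to Bcl2.

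The design crossed the drugs, so that the effect of metformin could be compared with and without FK506. With FK506 present, metformin gave 5 calls out of 10 (Mcl1, Bcl2l11, Pmaip1, Bax and Bid), all lower, where 30.7% of all genes tested passed (15.6% higher and 15.0% lower), and none reached 1 on the log2 scale, against 4.21% of all genes. The interaction, which is the change with metformin in the presence of FK506 minus the change without it, passed for 9 of the 10 genes, 3 positive and 6 negative, against 46.5% of all genes (22.5% positive and 24.0% negative), and 2 of the 9 reached 1 on the log2 scale, against 11.9%. The median interaction over the 10 genes was -0.25, beside -0.020 over all genes. Markers of other cells had interactions too. It passed for 9 of 10 B cell markers, 0 positive and 9 negative, with a median of -1.49. Of 10 myeloid markers 4 passed, 1 positive and 3 negative. The part of these cells in the interactions of the members was not tested. Among the 10 members, Bcl2l11 had the largest, -1.59 (SE 0.058, adjusted p = 2.76e-12), since metformin gave 1.34 on the log2 scale without FK506 and -0.25 with it. For Bbc3 the interaction was -1.15 (SE 0.077, adjusted p = 4.1e-09), from 1.25 without FK506 and 0.10 with it. Pmaip1 had an interaction of -0.81 (SE 0.084, adjusted p = 7.78e-07), from 0.17 without and -0.64 with FK506. The protective genes Bcl2 and Bcl2l1 had positive interactions of 0.73 (adjusted p = 2.04e-07) and 0.76 (adjusted p = 1.4e-08), as metformin lowered them without FK506 and gave 0.083 and 0.017 with it. These 5 interactions passed with the same sign under every alternative run. Smaller interactions were found for Bid (-0.48, adjusted p = 4.75e-05), Bax (-0.28, adjusted p = 0.00497), Bak1 (0.26, adjusted p = 0.00277; 0.16 and adjusted p = 0.0591 with scaling to T cell genes, and 0.15 after quantile normalization, which did not pass either) and Mcl1 (-0.23, adjusted p = 0.00444), and that of Bad did not pass (-0.042, adjusted p = 0.851).

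**Figure D5:**
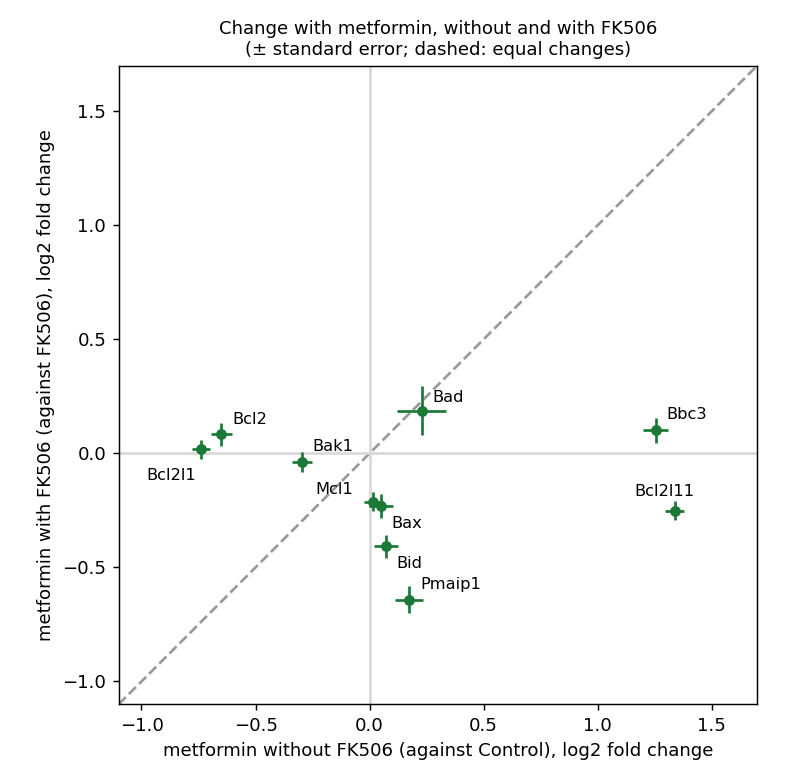
Log2 fold change with metformin in the absence of FK506 (horizontal axis, against Control) and in its presence (vertical axis, against FK506) for the 10 genes, with standard errors; the dashed line marks equal changes. Bcl2l11 (1.34 and -0.25) and Bbc3 (1.25 and 0.10) lie furthest from the line, below it, and Bcl2 and Bcl2l1 lie above it.

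For Metformin+FK506 against Metformin, the comparison in which FK506 was added to metformin, 9 of the 10 genes passed, 2 higher (Mcl1 and Bid) and 7 lower, against 78.2% of all genes tested (40.3% higher and 37.9% lower), with a median log2 fold change of -0.42 beside 0.025 over all genes. A log2 size of 1 was reached by Bcl2 and Bbc3, where 32.2% of all genes did so. With scaling to T cell genes the count was 5, 2 higher and 3 lower, and with TPM the split was 5 higher and 2 lower.

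The other members of the family share their domains with these 10. Of 15 such genes 12 were tested; for FK506 against Control 6 rose and 4 fell (median log2 fold change 0.23, beside 0.024 over all genes, of which 80.9% passed), for Metformin 5 rose and 5 fell (median -0.19, beside 0.011 and 56.0%), and for Metformin+FK506 6 rose and 4 fell (median 0.39, beside 0.033 and 81.7%). The largest fall among genes with reads in every group was that of Bnip3, a BH3-containing protein of mitochondrial turnover that is induced in hypoxia, from 147 ± 4.54 FPKM (SD, n = 3) in Control to 20.6 ± 0.188 in Metformin, 6.13 ± 0.277 in FK506 and 9.34 ± 0.649 in Metformin+FK506 (log2 fold change -4.80 with FK506, adjusted p = 4.6e-19, and -2.86 with metformin, adjusted p = 4.02e-16). Bmf, a BH3-only protein that binds BCL2, rose from 0.643 ± 0.0169 FPKM to 1.92 ± 0.123 in Metformin, 6.59 ± 0.499 in FK506 and 5.51 ± 0.335 in Metformin+FK506 (log2 fold change 3.13 with FK506, adjusted p = 7.76e-15, and 1.54 with metformin, adjusted p = 5.61e-10). Bcl2a1a, an anti-apoptotic gene, had a log2 fold change of 3.33 with FK506 (adjusted p = 3.92e-15) and 0.65 with metformin (adjusted p = 2.31e-05), but its reads may be split with the near-identical Bcl2a1b and Bcl2a1d, so its value is uncertain. It is also expressed in B cells and myeloid cells, whose marker sums were higher in the same libraries, and their part was not tested. Bok, a relative of the effectors, was listed at 0 in all 3 Metformin libraries and had at most 13 counts in any Control library, so no fold is given for Metformin. Its FPKM was 0.0979 ± 0.0338 (SD, n = 3) in Control, 1.29 ± 0.181 in FK506 and 2.14 ± 0.219 in Metformin+FK506, and from these low counts it rose by 3.38 on the log2 scale with FK506 (adjusted p = 4.48e-08) and by 4.13 with both drugs (adjusted p = 3.76e-09).

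When metformin was added to FK506, 4 of these 12 genes rose and 4 fell (30.7% of all genes passed), led by Bcl2a1a (log2 fold change -1.07, adjusted p = 4.16e-08), and when FK506 was added to metformin 7 rose and 4 fell (78.2% of all genes), with Bmf at 1.36 (adjusted p = 1.36e-10). The interaction passed for 11 of the 12 (6 positive and 5 negative), against 46.5% of all genes (22.5% positive and 24.0% negative), among them Bnip3 at 3.50 (adjusted p = 1.83e-14) and Bmf at -1.77 (adjusted p = 4.38e-09). With scaling to T cell genes the split was 8 higher and 3 lower for Metformin+FK506 against Control and 9 higher and 3 lower against Metformin.

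Downstream of the mitochondrion, all 14 genes of the apoptosome, the caspases and their inhibitors were tested. FK506 raised 7 and lowered 4 (median log2 fold change 0.15, beside 0.024 over all genes, of which 80.9% passed), metformin raised 7 and lowered 4 (median 0.11, beside 0.011 and 56.0%), and the combination raised 6 and lowered 5 (median 0.070, beside 0.033 and 81.7%). Scaled to T cell genes, the split was 10 higher and 3 lower for FK506 and 9 higher and 3 lower for the combination. Casp6, an executioner caspase, fell in all 3 (log2 fold change -1.86, -1.76 and -1.96, the weakest adjusted p being 4.23e-13). Casp9, the initiator caspase of the apoptosome, rose with FK506 (log2 fold change 1.28, adjusted p = 1.49e-11) and with both drugs (1.40, adjusted p = 4.48e-12), and Cycs, which encodes cytochrome c, fell with FK506 (-1.22, adjusted p = 7.22e-11), with metformin (-0.63, adjusted p = 8.41e-07) and with both (-1.20, adjusted p = 8.39e-11). Adding metformin to FK506 lowered 5 of the 14 and raised none (30.7% of all genes passed; 9 lower and none higher with scaling to T cell genes), with Birc2, an inhibitor of apoptosis, at -0.70 (adjusted p = 3.88e-09). Adding FK506 to metformin raised 4 and lowered 5 (78.2% of all genes passed); scaled to T cell genes this split was 11 higher and 3 lower. The interaction passed for 7 of the 14, 2 positive and 5 negative, against 46.5% of all genes.

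Of the 10 death receptor and adaptor genes, all tested, FK506 raised 5 and lowered 4 (median log2 fold change 0.092), metformin raised 4 and lowered 4 (median -0.047), and the combination raised 4 and lowered 4 (median 0.10), beside the same medians and shares over all genes (80.9%, 56.0% and 81.7% passed). Scaled to T cell genes the split was 8 higher and 2 lower for FK506 and 6 higher and 1 lower for the combination. Tnfrsf10b, the mouse TRAIL receptor, fell with FK506 (log2 fold change -1.70, adjusted p = 9.2e-11) and with both drugs (-1.70, adjusted p = 9.6e-11), and Fasl, the ligand of the Fas receptor, fell with FK506 (-0.96, adjusted p = 5.88e-08) and rose with metformin (0.59, adjusted p = 3.01e-05). Fas itself rose with metformin (0.63, adjusted p = 3.49e-09). Adding metformin to FK506 raised 3 of the 10 and lowered none (30.7% of all genes passed), which became 2 higher and 4 lower with scaling to T cell genes, while adding FK506 to metformin raised 7 and lowered 3 (78.2%). The interaction passed for 4 of the 10, 3 positive and 1 negative, against 46.5% of all genes.

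Bbc3, Pmaip1 and Bax are textbook targets of p53, and 12 further genes, Trp53 itself and 11 connected with it, were examined beside them. Metformin raised 6 and lowered 1 (median log2 fold change 0.19, beside 0.011 over all genes), 7 of 12 where 56.0% of all genes passed, 28.6% higher and 27.4% lower, so that the count is near the background. Among them were Trp53inp1 at 1.54 (adjusted p = 7.14e-11), Zmat3 at 1.02 (adjusted p = 4e-11) and Cdkn1a, the cell cycle inhibitor p21, at -0.88 (adjusted p = 4.89e-11). FK506 raised 4 and lowered 5 (median -0.075, against 80.9% of all genes), with Perp at -2.33 (adjusted p = 2.34e-10), and the combination raised 3 and lowered 7 (median -0.17, against 81.7%), with Cdkn1a at -2.01 (adjusted p = 3.37e-16). Trp53 itself did not pass with metformin (log2 fold change -0.019, adjusted p = 0.774) or with FK506 (0.047, adjusted p = 0.378). Adding metformin to FK506 raised 2 of the 12 and lowered 6 (30.7% of all genes passed), and adding FK506 to metformin raised 1 and lowered 7 (78.2%), with Gtse1 at -2.09 (adjusted p = 8.04e-15). Eda2r, a receptor of the tumour necrosis factor family, was the largest riser of the list in each comparison of groups but that of Metformin with Control. Its FPKM was 0.0622 ± 0.0335 (SD, n = 3) in Control, 0.0848 ± 0.0120 in Metformin, 0.245 ± 0.0673 in FK506 and 0.725 ± 0.266 in Metformin+FK506, low levels with at most 35 counts in any library without FK506. It rose by 1.76 on the log2 scale with FK506 (adjusted p = 7.84e-05), by 3.06 with both drugs (adjusted p = 1.05e-07), by 1.31 when metformin was added to FK506 (adjusted p = 0.00146) and by 2.59 when FK506 was added to metformin (adjusted p = 5.79e-07). Scaled to T cell genes the splits were 8 higher and 4 lower for FK506, 6 and 5 for the combination, 1 and 7 for metformin added to FK506, and 5 and 6 for FK506 added to metformin. The interaction passed for 7 of the 12, 1 positive and 6 negative, against 46.5% of all genes, among them Trp53inp1 (-1.40, adjusted p = 2.28e-08), Phlda3 (-1.35, adjusted p = 4.18e-07) and Zmat3 (-1.04, adjusted p = 4.53e-09).

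The last list held 12 factors and receptors known to act upstream of the family, such as FOXO factors, the stress factors ATF4 and CHOP, and the receptors of interleukin 2 and interleukin 7. All 12 passed for FK506, 4 higher and 8 lower (median log2 fold change -0.66), against 80.9% of all genes. For metformin 11 passed, 5 higher and 6 lower (median -0.12), against 56.0%, and for the combination 12 passed, 4 higher and 8 lower (median -0.50), against 81.7%; scaled to T cell genes, FK506 gave 5 higher and 6 lower and the combination the same split. Ddit3, which encodes CHOP, a factor known to induce Bbc3 and Bcl2l11 under stress, was 68.4 ± 1.54 FPKM (SD, n = 3) in Control, 141 ± 4.81 in Metformin, 27.2 ± 0.169 in FK506 and 39.4 ± 2.29 in Metformin+FK506. It rose with metformin alone (log2 fold change 0.92, adjusted p = 8.51e-12), fell with FK506 (-1.44, adjusted p = 8.43e-15) and with both (-0.94, adjusted p = 1.64e-12), and rose by 0.50 when metformin was added to FK506 (adjusted p = 1.89e-07). Il2ra, the interleukin 2 receptor alpha chain, fell with FK506 (-2.96, adjusted p = 4.9e-19) and with metformin (-1.16, adjusted p = 9.19e-14), and Myc fell with each agent (-2.87, adjusted p = 9.85e-18, and -1.32, adjusted p = 5.31e-13). Klf2, a quiescence factor, rose with FK506 (4.88, adjusted p = 6.68e-16), a gene that B cells also express. Adding metformin to FK506 raised 4 of the 12 and lowered 4 (30.7% of all genes passed), and adding FK506 to metformin raised 3 and lowered 8 (78.2%), with scaling to T cell genes giving 3 higher and 6 lower, and 5 and 5. The interaction passed for 9 of the 12, 6 positive and 3 negative, against 46.5% of all genes.

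Over the 12 samples, the genes most alike to each member in log2(FPKM + 1), by the root mean square difference of values centred on their own means, were sought among 12784 genes. Exoc2 (0.068) and Gbp10 (0.087) were closest to Bcl2, whose own values varied by 0.95 on the same measure. For Bcl2l1 they were Ifrd2 (0.067) and Clpx (0.073), and for Mcl1 Ube2d2a (0.049) and Vcp-rs (0.055). Bcl2l11 was closest to Tdrp (0.079) and Klhl24 (0.11), and Bbc3 to Gm35748 (0.11) and 0610039H22Rik (0.12). The closest to Pmaip1 were Rap2a (0.083) and Tmem86b (0.11), to Bid Trim12a (0.045) and Zmiz2 (0.054), and to Bad Milr1 (0.088) and Slc39a11 (0.089). Bax had LOC115488624 (0.046) and Max (0.053), and Bak1 had the nucleolar genes Ddx21 (0.043) and Tcof1 (0.047). The other members varied less than Bcl2 about their own means. The values were 0.12 for Bax, 0.16 for Bad, 0.20 for Bak1, 0.27 for Pmaip1 and 0.29 for Mcl1. They were 0.35 for Bcl2l1, 0.52 for Bid and for Bcl2l11, and 0.55 for Bbc3. A small difference therefore says less for a member that varied little. These points share libraries and their scaling, and likeness is given as a description only.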

How the data were processed

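Poly(A) RNA of 12 samples, 3 per group, was analysed. The deposited table holds, for every gene and sample, a whole-number read count that the authors had not normalized, an FPKM value (deposited by the authors, scaled to library size and transcript length) and a TPM value (deposited by the authors, scaled to the same total in each library). The submitters' processing notes name bcl2fastq 2.20.0, Trimmomatic, HISAT2 2.1.0, StringTie 2.1.3b and mm10, without their roles. Whether counting used strand, and how reads shared between paralogs were assigned, is not given in the sources used here. Of the 45777 genes, 18141 had no read in any sample. 0 per-sample columns were set aside.

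Genes with at least 0.5 FPKM in at least 3 samples (15197) entered a quasi-likelihood fit of the counts in edgeR 4.0.16 under R 4.3.3, with TMM scaling, 4 groups, 8 residual degrees of freedom and Benjamini-Hochberg adjustment over all of them. The standard error is the log2 fold change over the root of its F value. The same test on counts simulated for FK506 against Control recovered 161 to 176 of 200 genes changed by a factor of 2 over 12 draws, with 5 to 13 false calls (2.76% to 7.39% of calls). In each draw only these 200 of 15197 genes were changed, in random directions, from a mean profile shared by all groups. In the data 80.9% of genes passed for this comparison. The draws therefore do not measure the false calls or the scaling of the real comparison. Chi-square values between replicate libraries were well above sampling noise (4.10 to 16.0 per degree of freedom). The labels name no sequencing batch. Alternatives used DESeq2 1.42.0, limma 3.58.1, other scalings and filters, and fits without each sample. The 10 members and all gene lists were chosen with earlier results of these data known. Genes named are all members, up to 3 genes per list and comparison with the largest changes, the 2 genes most alike to each member, and the marker genes, except 1 listed gene that is not reported here; Trp53, Ddit3 and Bmf in further comparisons, and the motifs, were chosen after their values were seen. Gene positions and promoter sequences are from RefSeq (GRCm38.p6).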

Additional observations from a re-analysis of the deposited data

Results flagged for a closer look

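For 9 of the 10 genes the effect of metformin differed between cultures with and without FK506, by the interaction term of edgeR's quasi-likelihood test, which passed for 46.5% of all genes tested. The effect with FK506 minus the effect without it, on the log2 scale, was -1.59 for Bcl2l11, -1.15 for Bbc3, -0.81 for Pmaip1, -0.48 for Bid, -0.28 for Bax and -0.23 for Mcl1. It was 0.73 for Bcl2, 0.76 for Bcl2l1 and 0.26 for Bak1. The interaction was also negative for 9 of 10 B cell markers (median -1.49). The part of such cells in the values of the members was not tested. No group held 4 or more samples, so single samples were not tested as outliers.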

How the results depend on the processing

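Beside the reported setting, 26 others were run, among them limma on log2(TPM + 1), which was chosen after seeing the data. Of the 1490 values these gave for the members' log2 fold changes, 1406 kept their direction and their side of the threshold, 46 turned direction, 25 no longer passed and 13 came to pass; the 60 values of the DESeq2 Wald test all kept both. Another scaling moved the median log2 fold change of all genes by over 0.1: for FK506 against Control it was 0.25 with library sizes only, 0.45 with T cell genes and 0.42 with TPM, beside 0.024. The cause of the changes below was not tested. For FK506 against Control, Bax turned to 0.061 with library sizes only, 0.26 with T cell genes, 0.054 with limma on log2(FPKM + 1) and log2(FPKM + 0.1), 0.19 after quantile normalization and 0.29 with TPM, Bad to 0.043 with library sizes only, 0.25 with T cell genes and 0.14 with TPM, and Bbc3 to 0.13 with T cell genes and 0.15 with TPM. For Metformin against Control, Mcl1 turned to -0.0054 with TPM. Bbc3, for Metformin+FK506 against Control, turned to 0.023 with library sizes only, 0.14 with T cell genes, 0.013 with FPKM at either pseudocount and 0.28 with TPM, Pmaip1 to 0.061, 0.18, 0.031 and 0.033 (pseudocounts 1 and 0.1) and 0.29 in the same order, Bax to 0.0100 after quantile normalization and 0.065 with TPM, and Bad to -0.046 with no filter and -0.00011 after quantile normalization. Bcl2, for Metformin+FK506 against FK506, turned to -0.013 and Bcl2l1 to -0.079 with T cell genes, and Bcl2l1 to -0.0032 with no filter. For Metformin+FK506 against Metformin, Bad turned to 0.11 with T cell genes and 0.25 with TPM, and with TPM Bcl2l1 to 0.14, Pmaip1 to 0.15, Bax to 0.038 and Bak1 to 0.068. The interaction of Bad turned to 0.022 and 0.024 with FPKM (pseudocounts 1 and 0.1), 0.072 after quantile normalization and 0.11 with TPM.

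Leaving out 1 sample at a time kept 703 of 720 values. Bad ranged from -0.15 to 0.079 for Metformin+FK506 against Control and from -0.20 to 0.033 for the interaction, and Bcl2l1 ranged from -0.014 to 0.022 for Metformin+FK506 against FK506, and none of these 3 passed in the reported fit.

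The counts that follow are those that moved from the reported setting by a factor of more than 1.5, or to 0. Lists not named for a comparison kept their count within that factor. Keeping only calls of size 1 or more in log2 left, for FK506 against Control, 4 members, 4 apoptosome genes, 1 death receptor gene and 6 inducers. Metformin against Control kept 2 members, 4 other family genes, 1 apoptosome gene, 0 death receptor genes, 2 p53 genes and 3 inducers. Metformin+FK506 against Control kept 2 members, 4 apoptosome genes, 1 death receptor gene, 6 p53 genes and 5 inducers. Metformin+FK506 against FK506 kept 0 members, 1 other family gene, 0 apoptosome genes, 0 death receptor genes, 1 p53 gene and 0 inducers. Metformin+FK506 against Metformin kept 2 members, 6 other family genes, 1 apoptosome gene, 2 death receptor genes and 5 inducers. For the interaction it left 2 members, 2 apoptosome genes, 0 death receptor genes, 3 p53 genes and 2 inducers. With T cell genes, Metformin+FK506 against FK506 gave 9 apoptosome and 6 death receptor genes, and Metformin+FK506 against Metformin gave 5 members and 14 apoptosome genes. The p53 list gave 5 genes for Metformin+FK506 against FK506 with limma on FPKM, at either pseudocount and after quantile normalization, and 4 with TPM.

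No pairing by replicate number was seen: deviations of same-numbered samples correlated between -0.086 and 0.054 over 18 pairs, and 4 of 12 samples correlated best with their own number. Deviations from a mean of 3 samples cannot exclude that same-numbered samples shared a mouse or a culture. With the replicate block, 9, 6, 9, 5, 9 and 9 members passed in the 5 comparisons and the interaction, as without it, and no member's call changed.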
